A study of Homo sapiens with 12 samples.

Results

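The genes described here encode the proteins of the cytosolic ribosome. Members were the protein-coding genes of the deposited table whose symbols follow the naming scheme of these proteins (RPL, RPS and RPLP followed by a number, with RPSA, RPS4X, RPS27A and RPS27L), leaving out the RPS6 kinases. This rule gave 84 of the 60612 genes, 52 of the large 60S subunit and 32 of the small 40S subunit. Of these, 7 are paralogs of another member (RPL3L, RPL7L1, RPL10L, RPL22L1, RPL26L1, RPL39L and RPS27L). The other components known by newer or irregular symbols (among them RPL36AL, FAU and RACK1) fall outside the rule and are treated as a separate list.

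A ribosome holds one copy of nearly every one of these proteins, bound to ribosomal RNA, so cells make the proteins in near-equal numbers and degrade those that find no place. In human cells many of the mRNAs begin with a C followed by a run of pyrimidines, the 5′ terminal oligopyrimidine (TOP) tract, through which mTORC1 and the RNA-binding protein LARP1 control their translation as a class. Free RPL5 and RPL11, bound to 5S ribosomal RNA, inhibit MDM2 when assembly fails. In the liver, activation of hepatic stellate cells into collagen-secreting myofibroblasts places a high demand on protein synthesis.

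The cells were LX2, an established human hepatic stellate cell line, wild type per the labels. The series title places the study in work on mitochondrial DNA and the STING pathway in stellate cell activation. All 12 libraries came from cells starved of serum for 16 h, starting 24 h after seeding. There were 4 libraries each of cells given the compound STINGX at 10 µM for 3 h before TGFb, of cells given TGFb alone at 5 ng/ml for 16 h, and of untreated control cells. No group received STINGX without TGFb, and the labels name no vehicle for the cells that received neither agent. All are of 1 cell line, and the labels do not say whether replicates were separate cultures. The p-values thus cover the spread between these libraries, which may be technical.

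Library totals were between 54035320 and 70787741 estimated counts. Of the 10 stellate and mesenchymal markers, 8 passed the filter on low counts and their summed level was between 5440 and 10500 CPM (counts per 1e+06 counts of the library) over all libraries, while DES and LRAT had no count in any. ALB, APOB and TTR, which define hepatocytes, had no count in any library. Summed markers of hepatocytes were at 4.01 to 10.3 CPM and those of endothelium at 2.91 to 6.56 CPM. Leukocyte and macrophage markers summed to 75 to 91.1 CPM in STINGX-pretreated cells, 23 to 27.4 CPM in TGFb-treated cells and 72.9 to 77.7 CPM in control cells, and the lymphocyte markers CD3E and MS4A1 had no count. Cholangiocyte and epithelial markers summed to 31 to 32.4 CPM in STINGX-pretreated cells, 54.6 to 61.8 CPM in TGFb-treated cells and 45.4 to 47.9 CPM in control cells. The part of these lists in the results below was not tested. In bulk samples, fewer cells of a type and less RNA per cell cannot be told apart.

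The start of the mRNA was read from RefSeq for GRCh38.p14, which held an annotated start for 67 members. Of these, 47 (70.1%) had at an annotated start a C followed by at least 4 bases that are all C or T, on the strand of the gene. The same search found the tract in 5.14% of the 27305 genes of that table. The 7 windows below show the members whose values the results turn on, including 2 pairs of a paralog and its partner. Each window covers 15 bases before and 15 bases from the annotated start, and capitals mark the tract, which by construction begins at the start. The position and strand of each precede its sequence.
RPS27L, at chr15:63157463-63157492 on the minus strand: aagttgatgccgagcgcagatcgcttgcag
RPS27, at chr1:153990747-153990776 on the plus strand: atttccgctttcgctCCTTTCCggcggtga
RPL22L1, at chr3:170870181-170870210 on the minus strand: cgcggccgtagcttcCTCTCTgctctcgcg
RPL22, at chr1:6199581-6199610 on the minus strand: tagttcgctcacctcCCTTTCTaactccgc
RPS3A, at chr4:151099613-151099642 on the plus strand: cgactcccacttccgCCCTTTTggctctct
RPL13A, at chr19:49487593-49487622 on the plus strand: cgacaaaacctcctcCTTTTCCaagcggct
RPS7, at chr2:3575245-3575274 on the plus strand: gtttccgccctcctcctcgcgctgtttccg
RPL22L1 shares the tract with RPL22, while RPS27L lacks it and its partner RPS27 has it. A match describes the annotated letters, and the absence of one says only that these letters are not at that start.

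The summed mRNA of the 84 members made up 2.93% ± 0.0492 of all counts in STINGX-pretreated cells, 2.89% ± 0.108 in TGFb-treated cells and 3.23% ± 0.261 in control cells (SD, n = 4 each). By library the share was 2.87, 2.98, 2.95 and 2.93% in STINGX-pretreated cells, 3.01, 2.96, 2.80 and 2.80% in TGFb-treated cells, and 3.47, 3.44, 3.05 and 2.97% in control cells. The STINGX-pretreated and TGFb-treated libraries overlapped throughout; 3 of the 4 control libraries lay above all treated libraries, and control libraries 1 and 2 were the highest. On the scale used for the tests, where libraries are brought to a common level by the trimmed mean of M values (TMM), the sums averaged 27890 ± 495 CPM in STINGX-pretreated cells, 30350 ± 1430 CPM in TGFb-treated cells and 32510 ± 3290 CPM in control cells. The order of STINGX-pretreated and TGFb-treated cells thus differed between the 2 scales. The counts of 60S members were 1.82 ± 0.0295 times those of 40S members in STINGX-pretreated cells, 1.76 ± 0.0383 times in TGFb-treated cells and 1.73 ± 0.0141 times in control cells.

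**Figure D1:**
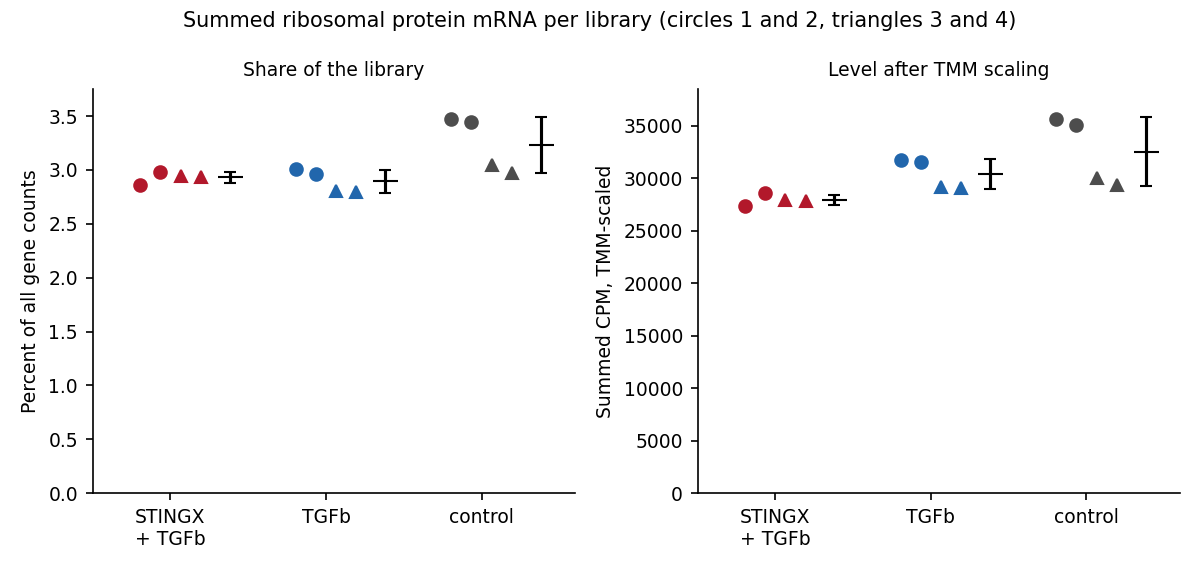
Summed level of the 84 ribosomal protein genes in each library, as a percent of all gene counts (left) and as TMM-scaled CPM (right), with circles for libraries 1 and 2, triangles for libraries 3 and 4, and the mean ± SD of 4 beside each group. Control libraries 1 and 2 lie above all others on both scales, and the STINGX-pretreated libraries lie below all others only after TMM scaling.

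Libraries numbered 1 and 2 stood apart from those numbered 3 and 4. In control cells 81 of the 82 tested members were higher in libraries 1 and 2, by a median of 0.25 on the log2 scale. The same difference was 0.12 in TGFb-treated cells, with 74 of 82 members higher, and 0.01 in STINGX-pretreated cells, with 47 of 82 higher. The labels give no batch for these numbers. Other genes with short mRNAs split in the same direction. In the 505 other genes with a mean of at least 10 CPM and a mean transcript length under 1 kb, the median difference was 0.01 in STINGX-pretreated, 0.10 in TGFb-treated and 0.21 in control cells. In the 3507 such genes of 4 kb and over it was 0.02, 0.01 and -0.04 in the same order of groups. Mean transcript length weights each transcript by its deposited counts, which were unstable for some members (below). It was 2550.7 bases for RPS29 and 6235.4 for RPL37. By this measure not all members are short, and those of 4 kb and over are not given. In control cells the difference was 0.255 in the 42 members under 1 kb, 0.244 in the 25 of 1 to 2 kb and 0.220 in the 10 of 2 to 4 kb. Other genes of 1 to 2 kb and of 2 to 4 kb had 0.124 and 0.027.

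**Figure D2:**
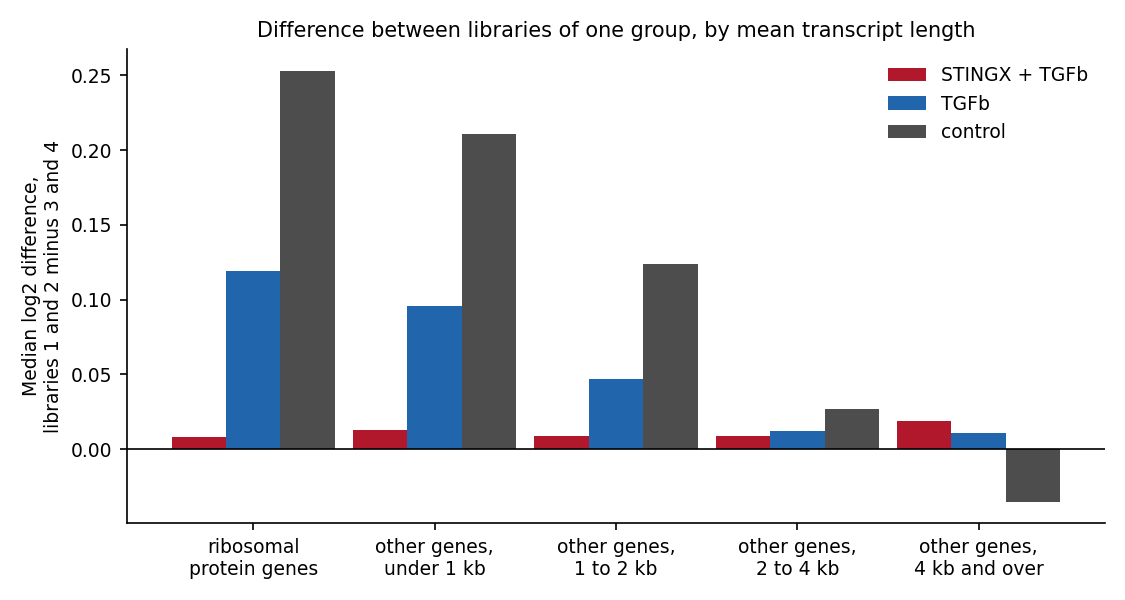
Median log2 difference between libraries 1 and 2 and libraries 3 and 4 within each group, for the ribosomal protein genes and for other genes of at least 10 CPM in 4 classes of mean transcript length. The bars of control cells are highest for the ribosomal protein genes (0.25) and for other genes under 1 kb (0.21), and those of STINGX-pretreated cells are near 0 in every class.

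Among members, levels per length were compared as CPM of library size per kilobase of transcript. In control cells RPL41, a very small 60S protein, was among the highest at 1137 ± 82.1, with RPS18 at 1071 ± 101 and RPL19 at 1034 ± 103, and these 3 did not differ beyond their spread. Among members that are not paralogs, RPL27A was lowest at 98.4 ± 13.5. RPS29 at 100.2 ± 10.1 and RPS28 at 106.3 ± 13.9 did not differ from it beyond their spread. The paralogs lay below these: RPL26L1 at 60.1 ± 8.36, RPL7L1 at 32.3 ± 10.2, RPS27L at 21.3 ± 4.14, RPL22L1 at 9.82 ± 2.11, and RPL39L at 9.14 ± 2.6 (SD, n = 4 for each value). These levels depend on how the deposited counts were divided among transcripts. The mean transcript length was 4050.6 bases for RPL27A and 5607.4 for RPS27L. RPL10L, described in testis, had no count in any library, and RPL3L, a paralog of striated muscle, had between 0 and 16 counts per library, so neither was tested. RPS27 has no value on this scale because nearly all of its counts lie on a transcript absent from the annotation used for lengths. The deposited FPKM values, which divide by the length of all exons merged, ranked RPL19 first and RPS14 43rd, against 8th for RPS14 per transcript length.

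In 58 of the 82 tested members the coefficient of variation within a group, averaged over the 3 groups, was under 10%. It was over 20% in 6 (RPL29, RPL7L1, RPL15, RPL39, RPL32 and RPL26). RPL29, a 60S protein, had 266, 564, 521 and 285 CPM in STINGX-pretreated cells, 299, 556, 508 and 241 CPM in TGFb-treated cells, and 645, 316, 432 and 455 CPM in control cells. Its 3 groups overlapped. Many members have near-identical processed pseudogenes, and 1237 rows of the table are named after 78 of the members, so the authors' software may have divided reads among copies. Several members also overlap another gene (RPS27L and LACTB, RPS3A and SH3D19, RPL36A and GLA on opposite strands, RPS10 and RPL17 with read-through genes on the same strand), and whether strand was used in counting is not stated in the labels.

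The first comparison asks how TGFb, the main fibrogenic cytokine of stellate cells, changed these mRNAs. Most ribosomal protein mRNAs did not pass the test. RPS27L fell most, among others RPS27, RPS4X, RPL13A and RPL36A fell by smaller amounts, and RPL22L1 rose. With edgeR's quasi-likelihood test and adjusted p under 0.05 over the 21328 genes tested, 7 of the 82 tested members were called, a share of 8.5% against 26.0% of all genes tested. The 1 member called higher compares with 13.2% of all genes called higher, and the 6 called lower (7.3%) with 12.8% of all genes called lower. The log2 fold change was below 0 in 63 of the 82, with a median of -0.10 against -0.00 for all genes tested.

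RPS27L, a paralog of the 40S protein RPS27, had 49.6, 57.8, 43.8 and 47.6 CPM in TGFb-treated cells, against 81.0, 84.4, 64.8 and 62.5 CPM in control cells. No library of one group reached the other group, and control libraries 1 and 2 were the highest. The log2 fold change was -0.56 (SE 0.11, edgeR adjusted p = 0.002). RPS27, a zinc-finger protein of the 40S subunit, had 260, 251, 220 and 241 CPM in TGFb-treated cells, against 323, 315, 281 and 274 CPM in control cells. Again the groups did not overlap, and the log2 fold change was -0.29 (SE 0.06, edgeR adjusted p = 0.00372). The X-linked 40S protein RPS4X fell by 0.27 on the log2 scale (SE 0.06, edgeR adjusted p = 0.00461). These 3 calls were kept under all 30 alternatives.

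RPL13A, a 60S protein also known for a role outside the ribosome in interferon-γ-dependent translational silencing, had 737, 715, 662 and 684 CPM in TGFb-treated cells, against 897, 920, 762 and 762 CPM in control cells. There was no overlap between groups, and the log2 fold change was -0.26 (SE 0.06, edgeR adjusted p = 0.0091). The RPL13A call was kept under 29 of 30 alternatives and lost without control libraries 1 and 2 (edgeR adjusted p = 0.06). RPL36A, a 60S protein, overlapped between groups and had a log2 fold change of -0.23 (edgeR adjusted p = 0.039), kept under 17 of 30.

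RPL22L1 was the member that rose. It is the paralog of RPL22, a 60S RNA-binding protein known in mouse to repress its paralog through the mRNA. RPL22L1 had 16.7, 14.5, 17.4 and 13.7 CPM in TGFb-treated cells, against 11.5, 13.3, 11.1 and 12.4 CPM in control cells. The groups did not overlap, and the log2 fold change was 0.37 (SE 0.09, edgeR adjusted p = 0.00951). The call was kept under 28 of 30 alternatives. RPL22 itself averaged 247 ± 26.3 CPM in TGFb-treated and 282 ± 12.8 CPM in control cells (SD, n = 4 each), with a log2 fold change of -0.19 (edgeR adjusted p = 0.0828).

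Without control libraries 1 and 2, 3 members were called lower and 5 higher, and the median log2 fold change was 0.01. In that fit 2218 of 22770 genes were lower and 2386 higher. Within libraries 1 and 2 alone 23 members were lower and 0 higher, where 1734 of 21670 genes were lower and 1787 higher. Within libraries 3 and 4 alone 4 members were lower and 2 higher, where 1363 of 21739 genes were lower and 1553 higher. The other genes of at least 10 CPM and under 1 kb had a median of -0.11, with 22.2% called lower. The part of the library split and of transcript length in the members' values was not tested.

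**Figure D3:**
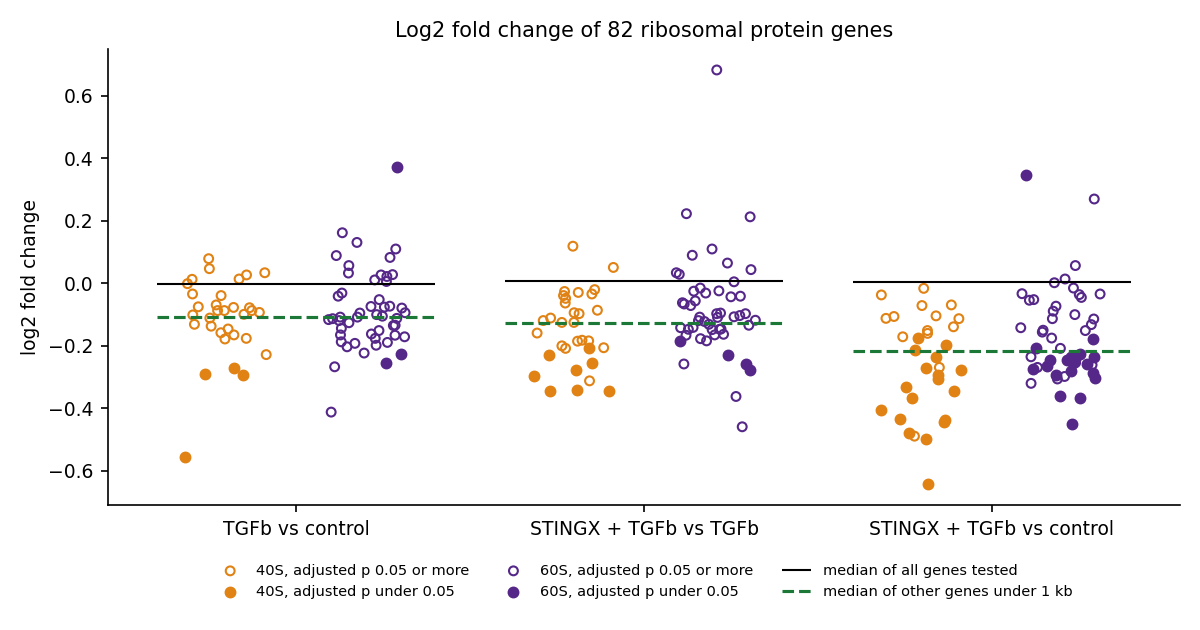
Log2 fold change of the 82 tested members in each comparison (y axis), 40S in orange and 60S in purple, filled where the adjusted p was under 0.05, with the median of all genes tested (black line) and of other genes under 1 kb (dashed green line). Most points lie below 0. The median of other genes under 1 kb (-0.11, -0.13 and -0.22 from left to right) lies near that of all members (-0.10, -0.12 and -0.22). Members of 1 to 2 kb (n = 25) had medians of -0.138, -0.110 and -0.236, against -0.055, -0.036 and -0.093 for other genes of that length. Those of 2 to 4 kb (n = 10) had -0.100, -0.123 and -0.209, against 0.021, 0.002 and 0.028. Lengths are means weighted by the deposited transcript counts, which were unstable for some members, and members of 4 kb and over are not given. With library size alone, which is not drawn, the members' median in the middle comparison is 0.02.

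The second comparison asks what STINGX given before TGFb changed relative to TGFb alone; it shares the TGFb-treated libraries with the first. After TMM scaling 12 members fell, 8 of the 32 tested 40S members and 4 of the 50 tested 60S members, each by less than 0.35 on the log2 scale, and 0 rose, whereas scaling by library size alone gave 1 lower and 4 higher. They were RPS3A, RPS7, RPS3, RPS29, RPS21, RPS15A, RPS24 and RPS20 of the small subunit, and RPL35A, RPL6, RPL5 and RPL10A of the large one. The share called was 14.6% against 27.5% of all genes tested. All 12 were lower, where 13.8% of all genes were called lower and 13.7% higher. Other genes with a mean of at least 10 CPM had 19.8% called lower. The number of lower calls thus does not set the members apart. No member was higher at an unadjusted p under 0.05 (0 by edgeR), and DESeq2 and limma-voom also called 0 higher. The median log2 fold change was -0.12 against 0.01 for all genes tested, and 70 of 82 were below 0.

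RPS3A, a 40S protein that also takes part in initiation, had 331, 381, 401 and 312 CPM in STINGX-pretreated cells, against 479, 463, 426 and 441 CPM in TGFb-treated cells. No library of one group reached the other group, and the log2 fold change was -0.34 (SE 0.09, edgeR adjusted p = 0.00966). RPS7, known to bind MDM2, had 177, 183, 181 and 164 CPM in STINGX-pretreated cells, against 228, 225, 200 and 242 CPM in TGFb-treated cells. The log2 fold change was -0.34 (SE 0.08, edgeR adjusted p = 0.00475), again without overlap. RPS3, a 40S protein at the mRNA entry channel with a known role in DNA repair, had 583, 607, 700 and 589 CPM in STINGX-pretreated cells, against 788, 814, 763 and 778 CPM in TGFb-treated cells. The groups did not overlap here either, and the log2 fold change was -0.34 (SE 0.08, edgeR adjusted p = 0.00856). The RPS3A, RPS7 and RPS3 calls were kept under 25, 28 and 24 of 30 alternatives, and all were lost within libraries 3 and 4. The division of RPS3A counts among its transcripts also differed between these groups (below).

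Next in size were RPS29 (-0.30), RPL35A (-0.28) and RPS21 (-0.28, all log2 fold changes), with edgeR adjusted p of 0.0107, 0.0107 and 0.0311. Their calls were kept under 25, 26 and 21 of 30 alternatives. RPL5, which binds 5S rRNA and MDM2, had 323, 332, 319 and 330 CPM in STINGX-pretreated cells, against 405, 400, 368 and 358 CPM in TGFb-treated cells. There was no overlap between groups, and its log2 fold change was -0.23 (SE 0.05, edgeR adjusted p = 0.00649). The RPL5 call was kept under 26 of 30. Its partner RPL11 averaged 335 ± 46.4 CPM in STINGX-pretreated and 361 ± 79.0 CPM in TGFb-treated cells (SD, n = 4 each) and did not pass the test (edgeR adjusted p = 0.688).

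With library size alone in place of TMM, 1 member was lower and 4 were higher, and the members' median was 0.02. Of the 12 calls only that of RPS7 was kept. That scaling moved the median of all genes tested to 0.15 and called 23.4% of all genes higher and 8.9% lower, and the members' median stood at -0.12 relative to all genes, against -0.13 with TMM. The falls after TMM scaling are thus relative to other genes. Within libraries 1 and 2 there were 25 lower and 0 higher calls, where 1931 of 21670 genes were lower and 1460 higher. Within libraries 3 and 4 there were 6 lower and 2 higher, where 1760 of 21739 genes were lower and 1446 higher. Other genes under 1 kb had a median of -0.13 with 25% called lower.

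The third comparison sets STINGX-pretreated, TGFb-treated cells against untreated cells and shares libraries with both of the others. Here 37 members fell and 1 rose, 38 of 82 or 46.3%, against 34.2% of all genes tested. The members called lower were 45.1% of those tested, where 17.0% of all genes were called lower and 17.2% higher. They were 18 of 32 40S members and 19 of 50 60S members. The log2 fold change was below 0 in 77 of 82, with a median of -0.22 against 0.00 for all genes tested.

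RPS27L again changed most, with 43.6, 50.5, 46.7 and 46.4 CPM in STINGX-pretreated cells, against the control values above. The groups did not overlap, and the log2 fold change was -0.64 (SE 0.11, edgeR adjusted p = 0.000516). RPS3 was at -0.48, RPL7A at -0.45, RPS21 at -0.44 and RPS3A at -0.44 on the same scale.

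RPL7A, a 60S protein, had 640, 782, 620 and 629 CPM in STINGX-pretreated cells, against 1036, 1032, 875 and 711 CPM in control cells. Its groups overlapped (SE 0.13, edgeR adjusted p = 0.0187). The abundant RPL23A, near the exit tunnel, averaged 885 ± 9.16 CPM in STINGX-pretreated and 1079 ± 122 CPM in control cells (SD, n = 4 each), a log2 fold change of -0.29 (SE 0.07, edgeR adjusted p = 0.00489). RPL41 was at -0.28 (SE 0.07, edgeR adjusted p = 0.00773) on that scale. RPL19 (-0.11) and RPS12 (-0.04), the other members among the highest FPKM values in control cells, did not pass the test.

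RPL22L1 rose here as well, with 14.4, 15.5, 15.9 and 15.5 CPM in STINGX-pretreated cells, above all 4 control libraries (log2 fold change 0.34, SE 0.09, edgeR adjusted p = 0.0105). RPL22 fell, with 202, 240, 211 and 222 CPM in STINGX-pretreated cells, against 300, 283, 270 and 276 CPM in control cells. No library of one group reached the other group, and the log2 fold change was -0.37 (SE 0.07, edgeR adjusted p = 0.00204).

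**Figure D4:**
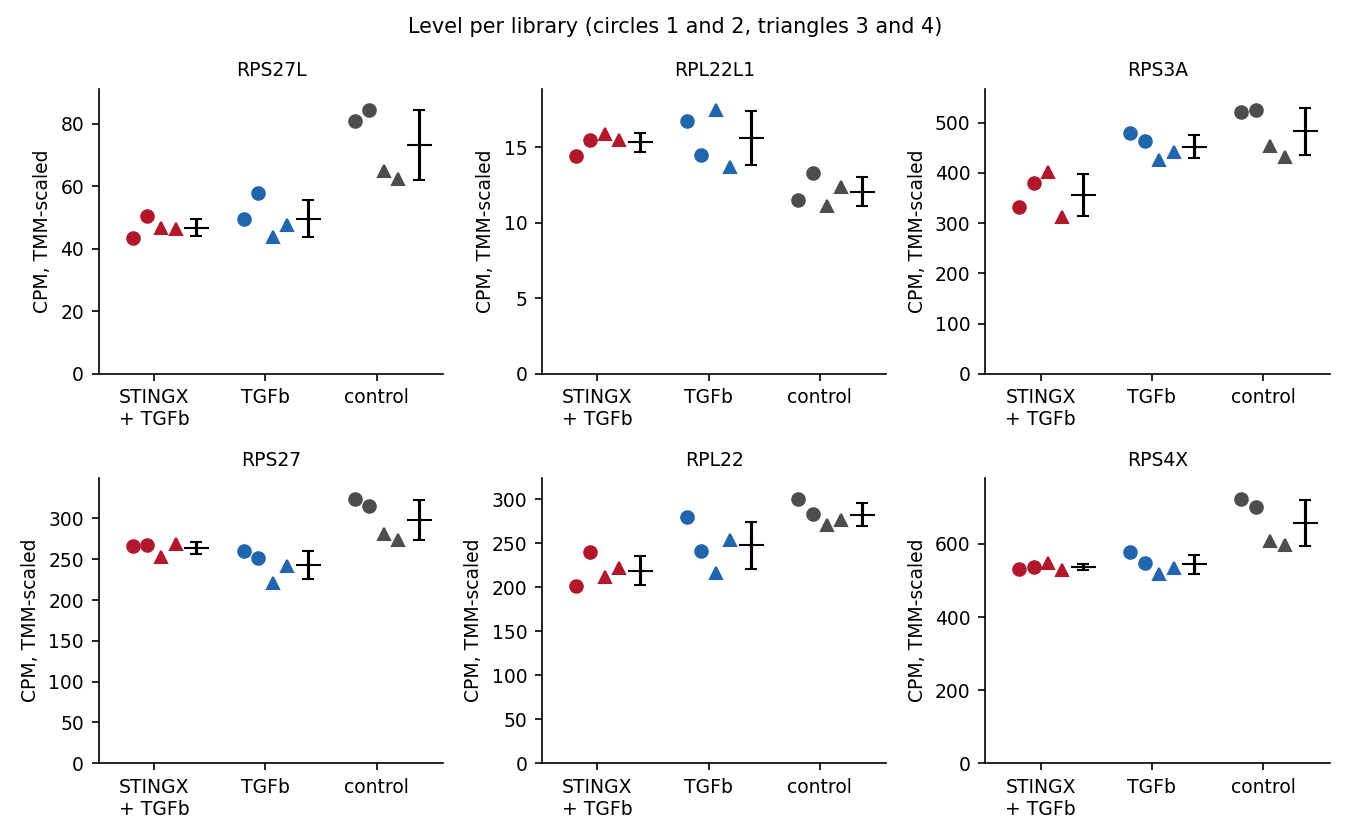
TMM-scaled CPM of 6 members in each library, with circles for libraries 1 and 2, triangles for libraries 3 and 4, and the mean ± SD of 4 beside each group. RPS27L, RPS27 and RPS4X lie below all control libraries in both treated groups, RPL22L1 lies above them, and RPS3A lies below the TGFb-treated libraries in STINGX-pretreated cells.

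Within libraries 1 and 2 alone there were 55 members lower and 0 higher, where 2632 of 21670 genes were lower and 2351 higher. Within libraries 3 and 4 alone 13 members were lower and 2 higher, where 2038 of 21739 genes were lower and 1962 higher. Without control libraries 1 and 2 there were 16 lower and 3 higher with a median of -0.08, where 2988 of 22770 genes were lower and 2976 higher. Other genes of at least 10 CPM and under 1 kb had a median log2 fold change of -0.22 with 40.8% called lower, those of 4 kb and over a median of 0.14 with 16.5% called lower. The part of length and of the library split was again not tested.

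Members with and without the tract at the mRNA start gave similar medians. The 17 members without an annotated start are in neither set. In STINGX-pretreated against control cells, 18 of 47 tested members with the tract and 9 of 19 without it were called lower. These are 38.3 and 47.4%, against 17.0% of all genes, with median log2 fold changes of -0.18 in each set. In STINGX-pretreated against TGFb-treated cells 5 of 47 and 4 of 19 were called lower (10.6 and 21.1%, against 13.8% of all genes). In TGFb-treated against control cells 3 of 47 and 2 of 19 were (6.4 and 10.5%, against 12.8%). The difference between the sets was not tested. Of 19 tested members mutated in Diamond-Blackfan anaemia, an inherited failure of red cell production, 1 was lower with TGFb against control, 6 with STINGX against TGFb and 10 with STINGX against control. No other of the 19 was called, so the shares called were 5.3, 31.6 and 52.6%, against 8.5, 14.6 and 46.3% of all members and 26.0, 27.5 and 34.2% of all genes tested. Of 24 members whose introns hold small nucleolar RNAs, the counts were 2, 3 and 13 in the same order, or 8.3, 12.5 and 54.2%. The P-stalk proteins RPLP0, RPLP1 and RPLP2, which recruit elongation factors, and the ubiquitin fusion RPS27A passed no test in any of the 3 comparisons.

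The ratio of a paralog to its partner within a library does not depend on the scaling of libraries. Counts of RPL22L1 were 7.03% ± 0.449 of those of RPL22 in STINGX-pretreated cells, 6.37% ± 1.17 in TGFb-treated cells and 4.28% ± 0.385 in control cells (SD, n = 4 each, counts not divided by length). Neither treated group overlapped the control group. The exact permutation test gave p = 0.0286 for both differences from control, the smallest that 4 against 4 allows, and 0.103 after adjustment over 18 tests. Counts of RPS27L were 17.7% ± 1.15 of those of RPS27 in STINGX-pretreated cells, 20.4% ± 1.78 in TGFb-treated cells and 24.4% ± 1.87 in control cells. STINGX-pretreated cells did not overlap either other group (exact permutation p = 0.0286, adjusted p = 0.103 for each), and TGFb-treated and control cells overlapped (exact permutation p = 0.0571).

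RPL7L1, RPL26L1, RPL39L and RPL36AL, each against its partner RPL7, RPL26, RPL39 or RPL36A, gave adjusted p from 0.103 to 0.971 in the exact permutation test. The lowest of these was RPL36AL at 85.4% ± 3.05 of RPL36A in STINGX-pretreated cells and 78.0% ± 1.39 in control cells. RPL10 and RPL3, the partners of the untested RPL10L and RPL3L, averaged 781 ± 18.3 and 751 ± 13.6 CPM in STINGX-pretreated cells, 724 ± 24.3 and 843 ± 36.1 CPM in TGFb-treated cells, and 752 ± 89.9 and 888 ± 89.2 CPM in control cells (SD, n = 4 each). Of these, RPL3 fell in STINGX-pretreated against control cells (log2 fold change -0.24, edgeR adjusted p = 0.00783).

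The deposited transcript counts were less stable than the gene counts. In 16 of 82 members some transcript's share of the gene's counts differed by over 50 percentage points between 2 libraries, and in 18 no transcript differed by over 10 points. RPS6, the 40S protein phosphorylated by S6 kinases and chosen after its values were seen, gave 3.06, 76.1, 78.2 and 1.14% of its counts to a transcript of 1355 bases in STINGX-pretreated cells, 1.39, 6.62, 1.35 and 0.991% in TGFb-treated cells, and 76.5, 76.8, 78.0 and 74.9% in control cells. STINGX-pretreated libraries were split between the values of the other groups. The RPS6 gene level, 458 ± 10.1 CPM in STINGX-pretreated, 466 ± 20.6 CPM in TGFb-treated and 492 ± 56.5 CPM in control cells (SD, n = 4 each), did not pass the test in any comparison. RPS3A gave 26.0, 28.2, 24.2 and 75.7% to its 934-base transcript in STINGX-pretreated cells, 93.9, 94.7, 94.6 and 94.5% in TGFb-treated cells, and 95.3, 94.5, 95.4 and 82.7% in control cells. The STINGX-pretreated library with 75.7% had the lowest RPS3A gene level of its group. Shares by transcript class varied less: protein-coding transcripts held 81.2% ± 0.827 of members' counts in STINGX-pretreated cells, 81.6% ± 1.01 in TGFb-treated cells and 81.8% ± 1.92 in control cells, and retained-intron transcripts 10.8% ± 0.420, 10.5% ± 1.13 and 9.60% ± 1.37 in that order.

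Genes that build the ribosome mostly rose with TGFb. Against control, 39 of 60 ribosome biogenesis factors rose and 3 fell (70% called, against 26.0% of all genes tested), with a median log2 fold change of 0.26. Non-member genes of at least 10 CPM and of 4 kb and over had a median of 0.106. The part of transcript length in this list was not tested. NOLC1, a nucleolar chaperone of small nucleolar ribonucleoproteins, averaged 144 ± 4.29 CPM in TGFb-treated and 91.0 ± 2.54 CPM in control cells (log2 fold change 0.67, SE 0.05, edgeR adjusted p = 1.14e-06). UTP20, of the small-subunit processome, and the RNA helicase DDX21 rose by 0.61 each on the log2 scale (edgeR adjusted p = 1.1e-06 and 2.21e-07). The count was 37 higher and 0 lower without control libraries 1 and 2, 21 and 2 within libraries 1 and 2, and 24 and 0 within libraries 3 and 4. In the same order 20.2, 16.2 and 13.4% of all genes were called in either direction.

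In STINGX-pretreated against control cells 35 of the 60 rose and 5 fell (66.7% called, against 34.2% of all genes tested), with a median of 0.24, led by RRP12 (0.57), PNO1 (0.55) and WDR43 (0.53), all log2 fold changes of factors in 40S maturation. Against TGFb alone, 2 rose and 12 fell, with a median of -0.02, and with library size alone 17 rose and 3 fell. The 23.3% called was below the 27.5% of all genes tested, and with library size alone 23.4% of all genes were higher, so these counts do not set the list apart from other genes. Among those that fell, MDN1, the AAA ATPase of 60S maturation, was at -0.48 (SE 0.09, edgeR adjusted p = 0.00107) and NCL, nucleolin, at -0.32 (SE 0.07, edgeR adjusted p = 0.00663). EFL1, a GTPase that frees the 60S subunit for joining, rose by 0.36 on the log2 scale (edgeR adjusted p = 0.000198).

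Of 16 genes of ribosomal RNA transcription by RNA polymerase I, 5 rose and 0 fell with TGFb against control (edgeR, 6 and 1 at an unadjusted p under 0.05, 5 and 0 by DESeq2). TAF1D, a subunit of the promoter selectivity factor SL1, averaged 40 ± 1.98 CPM in TGFb-treated and 28.4 ± 3.28 CPM in control cells (log2 fold change 0.49, edgeR adjusted p = 0.000625). POLR1G, a polymerase I subunit, varied widely, with 27.8 to 31.9 CPM in TGFb-treated and 2.68 to 18.7 CPM in control cells (log2 fold change 1.61, SE 0.46, edgeR adjusted p = 0.0252). With STINGX, 4 of 16 rose and 1 fell against TGFb (8 and 0 with library size alone), and 6 rose and 1 fell against control. The shares called were 31.2, 31.2 and 43.8% in the 3 comparisons, against 26.0, 27.5 and 34.2% of all genes tested.

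Of 27 translation initiation factors, 11 rose and 0 fell with TGFb against control (edgeR, 12 and 1 at an unadjusted p under 0.05, 10 and 0 by DESeq2). EIF4E, the cap-binding protein, rose by 0.38 and EIF1AX, which acts in start-codon scanning, by 0.39 on the log2 scale (edgeR adjusted p = 0.000839 and 0.000362). With STINGX against TGFb 2 rose and 8 fell, among them EIF4E at -0.45 and the scaffold EIF4G1 at -0.29 (edgeR adjusted p = 0.000223 and 0.00842), and with library size alone 5 rose and 2 fell. Against control, 6 rose and 1 fell. The list's shares called were 40.7, 37.0 and 25.9% in the 3 comparisons, against the same 26.0, 27.5 and 34.2% of all genes tested.

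The 18 elongation factors and other mRNAs with a TOP tract, which are regulated with the ribosomal protein mRNAs, gave 2 higher and 3 lower with TGFb against control, 2 and 4 with STINGX against TGFb (3 and 2 with library size alone), and 2 and 8 with STINGX against control. These are 27.8, 33.3 and 55.6% of the list, against 26.0, 27.5 and 34.2% of all genes tested. The median was -0.19 in the last of these, near the -0.22 of the members. GAS5, a non-coding TOP RNA that hosts small nucleolar RNAs, was among those that rose, with 57.2 ± 4.50 CPM in STINGX-pretreated, 41.0 ± 2.57 CPM in TGFb-treated and 41.3 ± 3.20 CPM in control cells (SD, n = 4 each). It rose by 0.48 on the log2 scale against TGFb and by 0.47 against control (edgeR adjusted p = 0.000344 and 0.000316).

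Of 17 regulators of TOP mRNAs and mTORC1, 2 rose and 1 fell with TGFb against control, 3 and 1 with STINGX against TGFb (6 and 0 with library size alone), and 2 and 1 with STINGX against control. At 17.6, 23.5 and 17.6% called, the list was below the 26.0, 27.5 and 34.2% of all genes tested in every comparison. LARP1B, a relative of LARP1, rose in all 3, by 0.47, 0.51 and 0.98 on the log2 scale in that order (edgeR adjusted p = 0.00152, 0.000614 and 2.15e-06). MTOR, the kinase itself, rose by 0.19 with TGFb against control (edgeR adjusted p = 0.00818), and EIF4EBP1, a repressor of EIF4E that mTORC1 inactivates, rose by 0.32 with STINGX against TGFb (edgeR adjusted p = 0.00832).

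Of the 4 ribosomal components outside the naming rule, RPL36AL fell with TGFb against control (log2 fold change -0.21, edgeR adjusted p = 0.0386), and no other call was made by edgeR or DESeq2 in any comparison, with 1, 0 and 2 genes lower at an unadjusted p under 0.05 in the 3 comparisons.

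**Figure D5:**
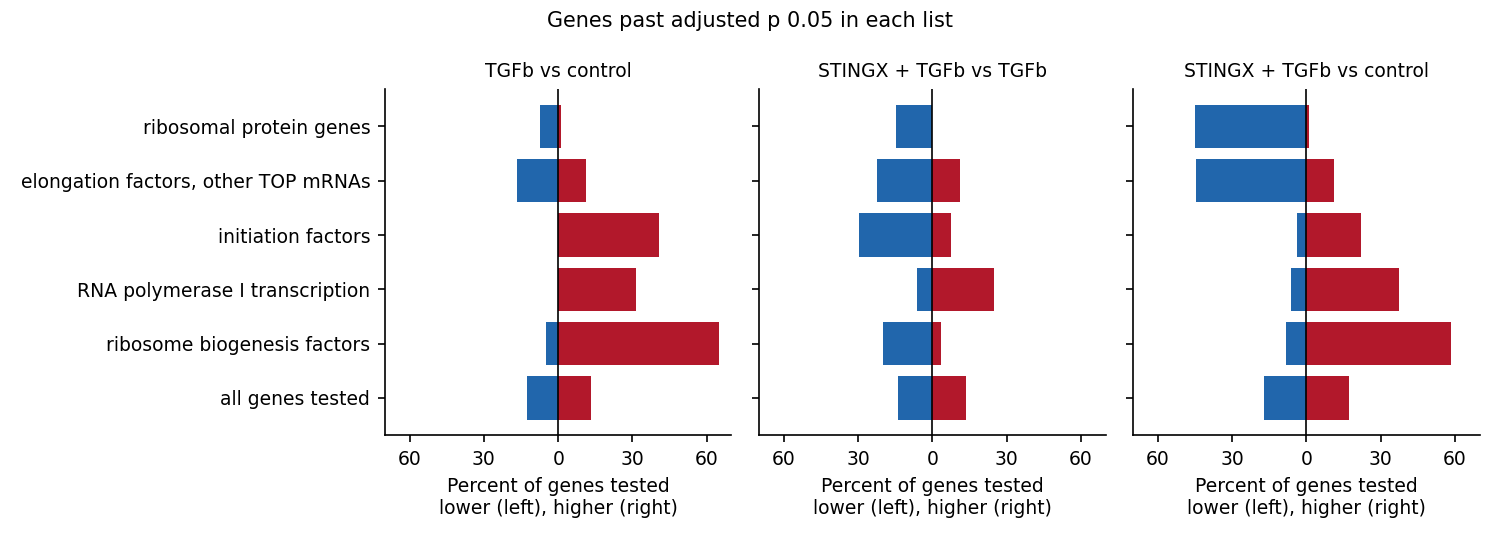
Percent of the tested genes of each list with an adjusted p under 0.05, lower to the left in blue and higher to the right in red, in each of the 3 comparisons, with all genes tested in the bottom row. Biogenesis factors lie to the right against control in the outer panels. The calls of ribosomal protein genes lie mostly to the left there. In the left panel their 7.3% called lower is below the 12.8% of all genes tested. In the right panel it is 45.1%, against 17.0%. All calls drawn are those after TMM scaling. With library size alone, which is not drawn, the calls of the middle comparison turned toward higher.

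Processed pseudogenes, intronless copies of these mRNAs, were counted as rows of their own. Of 207 tested rows named after members, 4 were higher and 22 lower with TGFb against control, 2 and 10 with STINGX against TGFb, and 4 and 48 with STINGX against control (12.6, 5.8 and 25.1% called, against 26.0, 27.5 and 34.2% of all genes tested), with medians of -0.19, -0.14 and -0.33. RPLP0P2, named after RPLP0, had 21.5 to 24.2 CPM in STINGX-pretreated cells, against 1.19 to 2.52 CPM in TGFb-treated cells, while RPLP0 averaged 464 ± 50.6 and 513 ± 37.0 CPM in the same order (SD, n = 4 each). Summing each member with its pseudogenes left the members' calls within 1.5 times the counts above in every comparison.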

How the data were processed

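The authors deposited whole-number estimated counts per gene and per transcript, and FPKM values, for LX2 libraries made with a stranded poly(A) kit, per the labels' protocols. Per the submitters' processing notes, cutadapt, HISAT2, StringTie and edgeR were used with GRCh38; their roles and versions, the annotation release and the strand setting are not stated. The deposited FPKM values behaved as counts over a merged exon length and library size.

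The estimated counts were tested with edgeR 4.0.16 (filterByExpr, TMM, robust quasi-likelihood, all 12 libraries, 1 coefficient per group, Benjamini-Hochberg over 21328 genes, threshold 0.05), checked on simulated counts. CPM use TMM-scaled library sizes, except marker sums and per-length levels, which use library size. Transcript lengths came from GENCODE 29. Per-length levels exclude transcripts without a length. Paralog ratios used log2(count + 0.5) and two-sided exact permutation tests for the 6 pairs with a mean of at least 10 counts. Pairs of libraries within a group differed by more than counting noise. Depth was 54035320 to 70787741 counts per library; with estimated counts no counting interval is given. The POLR1F, POLR1G and POLR1H symbols were matched through the gene identifier.

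Named members were, per comparison, the 6 largest rises and falls past the threshold (at least 2 CPM in a group), both genes of each paralog pair, and the 5 highest and 3 lowest by control FPKM. List genes named were up to 3 per list with the largest absolute change past the threshold; RPL5, RPL11, RPL29, RPL15, RPS6 and the P stalk were added after their values were seen. Some members and list genes that the rule names are not reported here. Members and lists were chosen with earlier results of these data known. Alternatives covered scaling (including library size alone and DESeq2 1.42.0 size factors), filters, DESeq2, limma-voom (limma 3.58.1), limma on log2(FPKM + 1 or 0.1), pseudogene sums, a replicate block and leaving out each library. Choices on libraries 1 and 2 against 3 and 4 were made after the data were seen.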

Additional observations from a re-analysis of the deposited data

Results flagged for a closer look

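In 10 of 120 groups of 4 libraries examined, 1 library stood far from the other 3. Some of these genes were added after their values were seen, and some enter both alone and in a ratio. No rate by chance can therefore be set beside this count. RPL15 had 542 CPM in TGFb-treated library 4, against 721 to 736 CPM in the other 3. RPL26 had 343 CPM in STINGX-pretreated library 4, against 227 to 242 CPM, and 381 CPM in TGFb-treated library 1, against 232 to 256 CPM. RPL39 had 259 CPM in STINGX-pretreated library 2, against 160 to 167 CPM, and 263 CPM in TGFb-treated library 4, against 171 to 184 CPM. Its paralog RPL39L was at 2.28% of RPL39 counts in STINGX-pretreated library 2, against 4 to 4.33%. RPL7A had 782 CPM in STINGX-pretreated library 2, against 620 to 640 CPM. In 3 further cases the gap was small in size: in STINGX-pretreated cells RPL23A had 871 CPM in library 3 against 888 to 890 CPM, RPS27 had 253 CPM in library 3 against 266 to 269 CPM, and RPS12 had 264 CPM in library 4 against 282 to 286 CPM.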

How the results depend on the processing

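Counts of members called are given as higher and lower. With TGFb against control (1 and 6), the lower count was 23 with library size alone, 14 with upper quartile scaling, 19, 19 and 13 with limma on FPKM (pseudocount 1, pseudocount 0.1, and 1 without a filter), and 10 with a term for libraries 1 and 2. In the same order, all genes called lower were 3523, 3207, 3469 and 3477 of 21328, 2920 of 35481, and 2868 of 21328. In the fit used above, 2730 of 21328 were lower. The counts were 0 and 23 in libraries 1 and 2 alone, 2 higher in libraries 3 and 4 alone, 5 and 3 without control libraries 1 and 2. The calls among all genes for these library choices are given with the comparison above. With STINGX against TGFb (0 and 12), the members' counts were 4 and 1 with library size alone and with limma on FPKM (4 and 1 at pseudocount 0.1, 3 and 0 without a filter), 1 and 25 in a fit of these 2 groups, 20 lower with the term, 25 lower in libraries 1 and 2, 2 and 6 in libraries 3 and 4, and 1 and 27 without control libraries 1 and 2. All genes called higher and lower were 4997 and 1890 of 21328 with library size alone, and 4918 and 1907 of 21328 with limma on FPKM. At pseudocount 0.1 they were 4865 and 1905 of 21328, and without a filter 4201 and 1696 of 35481. They were 3185 and 3057 of 20170 in the fit of 2 groups, 3024 and 3086 of 21328 with the term, and 3151 and 3154 of 22770 without control libraries 1 and 2. With STINGX against control (1 and 37), the members' counts were 16 lower with limma on unfiltered FPKM, 0 higher in libraries 1 and 2, 2 and 13 in libraries 3 and 4, and 3 and 16 without control libraries 1 and 2. Limma on unfiltered FPKM called 2494 of 35481 genes lower, and all-gene calls for the library choices are given with the comparison above. Leaving out 1 library gave 1 to 2 and 4 to 13, 0 to 0 and 8 to 15, and 1 to 1 and 27 to 43 in the 3 comparisons. All genes called were then 22.1 to 24.4%, 23.1 to 27.0% and 29.4 to 32.9% in the same order. The log2 ratio of summed shares was 0.02 with STINGX against TGFb and -0.12 on TMM-scaled CPM. Leaving out libraries and restricting groups changes the number of samples; the cause of the other differences was not tested.

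The replicate block gave 1 and 8, 0 and 16, and 1 and 40, all within 1.5 times. With it 24.9, 26.5 and 33.4% of all genes were called in the 3 comparisons. Over 6384 well-expressed genes, deviations of same-numbered libraries from their group means correlated at -0.03 to 0.10, and not every library correlated best with its own number. The labels do not say what a number marks. Among the members, libraries 1 and 2 lay above 3 and 4 in both control and TGFb-treated cells, and a term for that split is among the alternatives above. For paralog ratios the exact sign-flip test over 4 pairs cannot go below p = 0.125.

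Direction turned only in values that had not passed the test. RPL22L1 with STINGX against TGFb was 0.115 with library size alone, 0.102, 0.117 and 0.102 with limma on FPKM, 0.010 in libraries 3 and 4, and -0.081 to 0.032 leaving out 1 library. RPS27L in that comparison was 0.055 with library size alone, 0.047, 0.056 and 0.047 with limma on FPKM and 0.028 in libraries 3 and 4. RPL36AL was -0.046 there in libraries 1 and 2. RPL26L1 was -0.015 with TGFb against control in libraries 1 and 2 and 0.003 with STINGX against TGFb in libraries 3 and 4. With STINGX against control RPL26L1 was 0.026 with library size alone, 0.032, 0.034 and 0.032 with limma on FPKM, 0.193 in libraries 3 and 4, 0.131 without control libraries 1 and 2, and -0.126 to 0.040 leaving out 1 library. RPL39L was -0.037 with upper quartile scaling, -0.177 in libraries 1 and 2 and -0.127 to 0.207 leaving out 1 library. Leaving out 1 library gave log2 ratio differences of -0.494 to 0.010 for RPL7L1 to RPL7, -0.229 to 0.212 for RPL39L to RPL39 and -0.008 to 0.045 for RPL36AL to RPL36A with TGFb against control, and -0.206 to 0.059 for RPL26L1 to RPL26 with STINGX against TGFb. RPL39L to RPL39 was 0.002 with pseudogenes summed.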
